A study of Mus musculus with 18 samples.

Results

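Basophils from mouse bone marrow that were kept in culture were compared with mast cells grown from mouse bone marrow, all of the C57Bl/6 strain. The comparison takes 6 of the 18 microarrays of the series, 3 per cell type, and every probe annotated with 1 gene symbol, which is 21876 of 26423 probes and covers 19084 genes. The cultured basophils carried Cebpa +/+ and RosaYFP/creER, a Cre recombinase that 4-hydroxytamoxifen activates. They had been purified and kept for 5 days in IDMEM, a culture medium, with interleukin 3 (IL-3) at 20 ng/ml and no 4-hydroxytamoxifen. The mast cells came from unsorted bone marrow held for 4 weeks in that medium with IL-3 at 20 ng/ml, and their labels name no transgene. A second set of 3 arrays serves as a further reference: basophils purified directly from the bone marrow of mice given complexes of IL-3 and an antibody against it 3 days earlier, again with no transgene named. Basophils of Cebpa +/+ and of Cebpa f/f genotype, both RosaYFP/creER and cultured for 5 days with 100 nM 4-hydroxytamoxifen, are quoted for a few genes.

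The study set out to find genes that set basophils and mast cells apart and those that depend on Cebpa. Cell type coincides here with the length of culture, with the starting population (purified basophils or whole marrow) and with the RosaYFP/creER alleles, and these cannot be told apart. The labels give neither the markers used to purify basophils nor whether the cultured basophils came from mice given IL-3 complexes. Nor do they tell whether each replicate had its own mouse or culture, and the p-values therefore reflect the spread between these arrays, which may be technical. The labels do not name the promoter that drives creER. In whole-population RNA, fewer cells of a type and less RNA per cell cannot be told apart.

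Basophils are short-lived granulocytes that circulate in blood, and mast cells are long-lived cells that mature in tissues. Both carry the high-affinity receptor for IgE and, when antigen cross-links that IgE, empty granules filled with histamine, proteases and sulfated proteoglycan and make leukotrienes, prostaglandins and cytokines. IL-3 supports the growth of both from marrow, whereas stem cell factor acting on Kit is the main survival signal of mast cells. Cebpa encodes C/EBP-alpha, a transcription factor of granulocyte development, and Mitf encodes a helix-loop-helix transcription factor that mouse mast cells need for their proteases and Kit.

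Intensities are background-subtracted brightness values, quantile normalized over the 18 arrays, so that a value has meaning between arrays for 1 probe but not between probes. Intensities summed over a gene list are therefore set mainly by its brightest probes and are not a level of the whole list. Before normalization the median intensity was 37 to 39 on the cultured basophil arrays, against 26 to 31 on the mast cell arrays. Replicates correlated at 0.993 on the log2 scale in cultured basophils and at 0.9897 to 0.9908 in mast cells, and their median SD over probes above an intensity of 100 was 0.0791 and 0.102 on the log2 scale in cultured basophils and mast cells. A group with every array under an intensity of 30 is treated as not above background, and a fold change against it is given as a lower bound ("at least") that takes 30 as its level. Fold changes are on the scale of log2(intensity + 16), which understates the change of dim genes, and run cultured basophils over mast cells. Adjusted p-values come from limma over all 26423 probes, two-sided, with a threshold of 0.05.

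The 4 genes that mark the cell types all passed the test. Cebpa had intensities of 2280.2, 2602 and 2226 in cultured basophils, against 56.8, 63.8 and 45.7 in mast cells, a log2 fold change of 5.07 (SE 0.12, adjusted p = 3.18e-08). Prss34, the basophil tryptase mMCP-11, was at 47688, 49573 and 49573 in cultured basophils, against 1454, 1486 and 1636 in mast cells (log2 fold change 4.99, SE 0.093, adjusted p = 1.13e-08). Every cultured basophil array lay far above every mast cell array for both genes. Mitf went the other way, with 569.8, 600.2 and 592 in cultured basophils, against 5499, 4709 and 4748 in mast cells (log2 fold change -3.05, SE 0.10, adjusted p = 1.33e-07). Kit, the receptor of stem cell factor, had 2106, 2222 and 2347 in cultured basophils, against 16726, 16201 and 16928 in mast cells (log2 fold change -2.89, SE 0.091, adjusted p = 1.07e-07). The groups did not overlap for any of the 4 genes. Over all genes 52.8% did not overlap and 42.0% passed the test.

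Of 14 measured basophil markers, 11 were higher and 1 lower in cultured basophils, with a median log2 fold change of 2.30. Of 15 measured mast cell markers, 0 were higher and 8 lower, with a median of -0.72. Several of them gave a signal far above background in both cell types. Mcpt8, the basophil protease used to mark the lineage in mice, averaged 50584 ± 5701 in cultured basophils and 9411 ± 413 in mast cells (SD, n = 3 each). Cd200r3, an activating receptor of both cell types, averaged 25012 ± 1332 in cultured basophils and 19199 ± 804 in mast cells on 1 probe, a log2 fold change of 0.38. A second Cd200r3 probe averaged 19287 in cultured basophils and 6160.0 in mast cells, a log2 fold change of 1.65 (adjusted p = 3.17e-06), so the 2 probes differ in size but not in direction. Fcer1a, the IgE-binding chain, was at 11479.8, 13996 and 11165 in cultured basophils and 22848, 21976 and 24114 in mast cells. Itga2, the integrin CD49b of basophils, had 69.3, 81 and 72.2 in cultured basophils, against 3.67, 3.28 and 4.78 in mast cells, and the probe of Cyp11a1 stayed under 30 on all 6 arrays. Of the mast cell markers, Cma1 kept 8464, 8904 and 8996 in cultured basophils, against 26925, 27722 and 29182 in mast cells, and the carboxypeptidase Cpa3 stood near the top of the scanner's range in both. Mcpt4 and Tpsab1 have no probe of their own symbol here.

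Across all genes, 8017 of 19084 passed the test (42.0%), with 3469 higher (18.2%) and 4548 lower (23.8%) in cultured basophils than in mast cells. Of those past the test 43.3% were higher; without between-array normalization 66.1% were, so the excess of lower genes turned into an excess of higher ones, and the median of all genes moved by 0.167 on the log2 scale. With a change of at least 2-fold as a further condition, 2817 genes remained (14.8%), 1498 higher (7.85%) and 1319 lower (6.91%). The 3 arrays of each group did not overlap for 10085 genes (52.8%). The median log2 fold change of all genes was -0.05. Counts and medians of gene groups, above and below, are read against these shares.

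**Figure D1:**
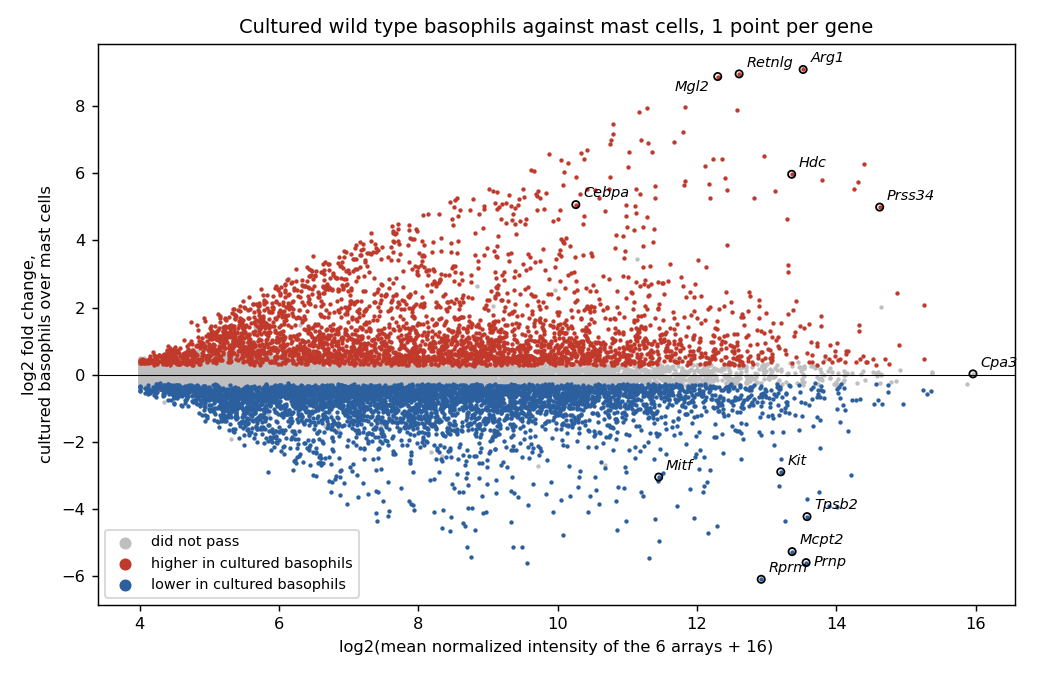
Log2 fold change of cultured wild type basophils over mast cells (vertical axis) against the mean normalized intensity of the 6 arrays on a log2 scale (horizontal axis), 1 point per gene, 19084 genes. Red points passed the test as higher in cultured basophils (3469), blue as lower (4548) and grey did not pass; the highest genes reach 9.09 (Arg1) and the lowest -6.09 (Rprm), while Cpa3 lies near 0.

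The 15 genes with the highest fold changes in cultured basophils included 3 chemokines, a chemokine receptor, 2 C-type lectins and 2 enzymes that act on arginine. Arg1, arginase 1, which breaks down arginine, had 23528, 22667 and 24379.8 in cultured basophils, against 14.6, 35.3 and 35.3 in mast cells, the highest log2 fold change of all genes under the naming rule at 9.09 (SE 0.20, adjusted p = 1.76e-08). Retnlg, a small secreted protein of the resistin family known from neutrophils, was at 12319.5, 12789 and 12184 in cultured basophils, against 13.2, 9.83 and 4.78 in mast cells and so at least 414-fold higher. Mgl2, the C-type lectin CD301b, had 10226, 9740.3 and 10163 in cultured basophils, against 2.61, 6.5 and 7.22 in mast cells (at least 335-fold higher). For these 3 genes the mast cell arrays were close to or under the background limit. Clec7a, the beta-glucan receptor dectin-1, was at 5067, 5067 and 4867 in cultured basophils, against 21.7, 28.3 and 27.4 in mast cells (at least 167-fold higher). Cxcr2, a chemokine receptor typical of neutrophils, had 4789, 5251 and 4877 in cultured basophils, against 2.61, 6.5 and 3.83 in mast cells (at least 166-fold higher). Nt5e, the ectoenzyme CD73 that makes adenosine from AMP, had 4839, 4474 and 4668 in cultured basophils, against 16, 24.6 and 22.3 in mast cells (at least 155-fold higher).

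The other 9 genes of that set had mast cell arrays close to background as well. The naming rule admitted only genes without overlap of the groups. The granzyme Gzma was at least 117-fold higher, and the chemokines Ccl9 and Ccl7 at least 115-fold and 113-fold higher. Ccl12, another chemokine, had a log2 fold change of 7.97, with mast cell arrays at 30.4, 3.28 and 10.9. Rbp4, a carrier of retinol, and Fabp4, a carrier of fatty acids, were at least 153-fold and 117-fold higher, though 1 of the dimmer probes of Rbp4 did not pass. Hk3, the hexokinase of myeloid cells, averaged 7108 ± 359 in cultured basophils and 31 ± 1.84 in mast cells (SD, n = 3 each; log2 fold change 7.24). Padi4, which converts arginine to citrulline in histones, had a log2 fold change of 6.94, and Igsf6, an immunoglobulin-like membrane protein, one of 7.87. The highest adjusted p among the 15 was 1.73e-07.

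The 15 genes with the lowest fold changes included a protease, a cytokine receptor, a glutamate receptor subunit and 2 regulators of transcription. Rprm, which encodes reprimo, a membrane protein that halts the cell cycle, had 214, 200.1 and 210.2 in cultured basophils, against 14662, 15467 and 15768 in mast cells, the lowest log2 fold change under the naming rule at -6.09 (SE 0.09, adjusted p = 5.73e-09). Prnp, the prion protein, was at 458, 439.9 and 530.1 in cultured basophils, against 22961, 22171 and 26207 in mast cells (log2 fold change -5.60). Il4ra, the shared receptor chain for IL-4 and IL-13, had 113, 145 and 130.5 in cultured basophils, against 3446, 3432 and 3724 in mast cells (log2 fold change -4.61). These 3 genes were bright on every mast cell array and low, though above background, on every basophil array.

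The set was completed by regulators, membrane proteins and enzymes. Among regulators, Hic1, a transcriptional repressor, was at least 48.5-fold lower, and Zfhx3, a zinc finger and homeobox protein, at least 28.2-fold lower. Among membrane proteins, the orphan receptor Gpr176 had a log2 fold change of -5.46, the tetraspanin Tspan8 was at least 27.5-fold lower and Grin2c, a subunit of NMDA glutamate receptors, at least 41.8-fold lower. Avil, an actin-binding protein of sensory neurons, averaged 160.2 ± 1.21 in cultured basophils and 5414 ± 101 in mast cells (SD, n = 3 each; log2 fold change -4.95). Pigz, a mannosyltransferase of membrane anchors, had -4.76, Samd14 -4.72 and Fam155a -5.14 as log2 fold changes. Ccdc92b and Hdgfl3 were at least 26.5-fold and 21.9-fold lower. Mcpt2 is described with the proteases below, and the highest adjusted p among the 15 was 3.71e-07.

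**Figure D2:**
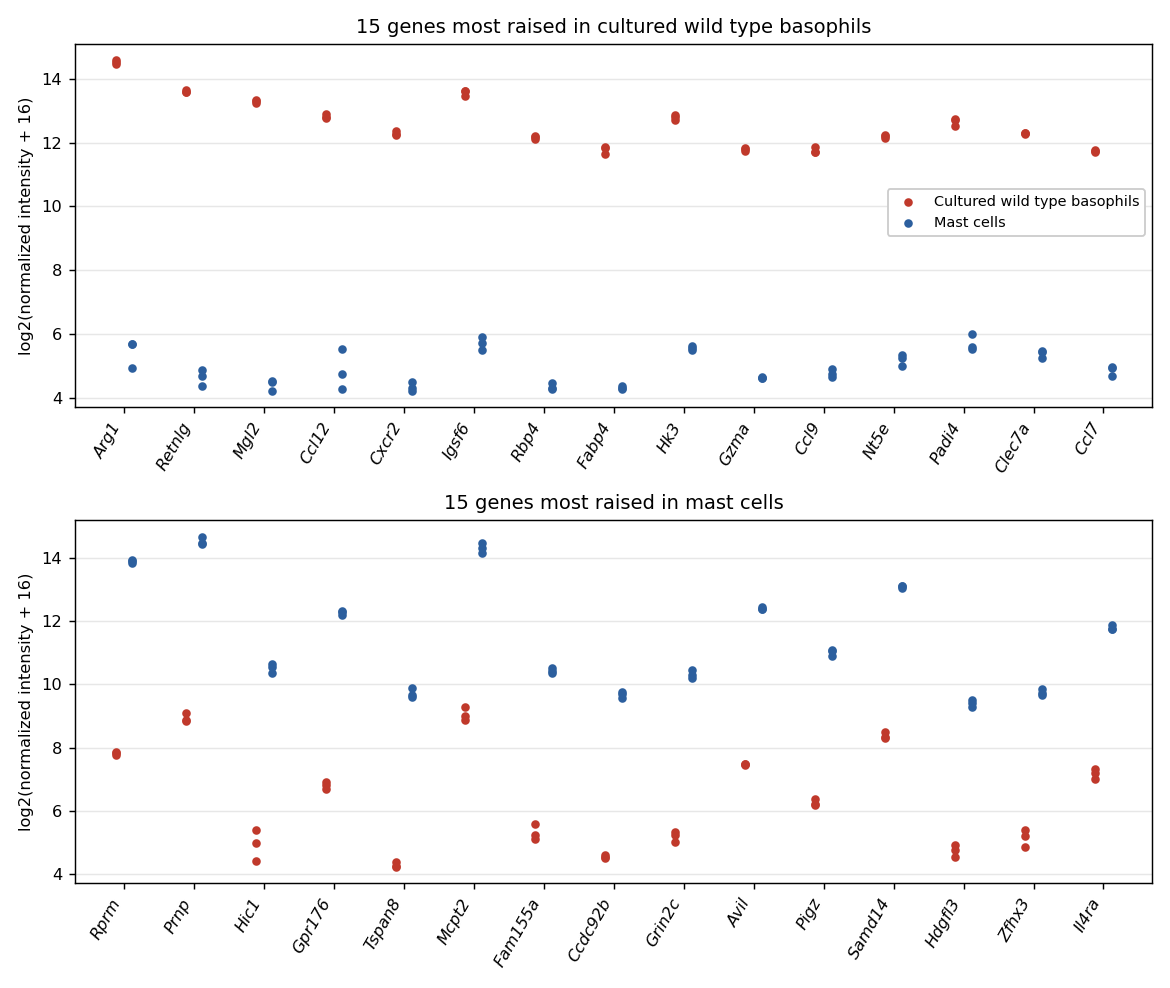
Normalized intensity on a log2 scale (vertical axis) of the 15 genes with the highest (top) and the 15 with the lowest (bottom) fold changes, 1 point per array, 3 arrays per cell type. Cultured basophils (red, left) and mast cells (blue, right) do not overlap for any of the 30 genes, as the naming rule required. In the top panel the mast cell points sit near the background. In the bottom panel Mcpt2, Prnp and Samd14 keep a clear signal in cultured basophils, and Rprm, Avil and Il4ra are also among those above background.

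Granule proteases split by gene. Of 14 measured, 3 were higher and 7 lower in cultured basophils, and 3, Mcpt9 of the lower ones among them, stayed under the background limit in both cell types. The higher ones were Prss34, Mcpt8 and Gzma. Mcpt8 had 49573, 45456 and 56723 in cultured basophils, against 9007, 9833 and 9392 in mast cells (log2 fold change 2.42, SE 0.11, adjusted p = 8.36e-07). The largest fall was that of Mcpt2, a chymase-like protease of mucosal mast cells, with 499, 458 and 602 in cultured basophils, against 20392, 22961 and 18402 in mast cells (log2 fold change -5.27, SE 0.13, adjusted p = 3.66e-08). Tpsb2, the mast cell tryptase mMCP-6, had 1183, 1167 and 1327 in cultured basophils, against 22667, 25537 and 21563 in mast cells (log2 fold change -4.23). Tpsg1, a tryptase with a membrane anchor, had 720.4, 632 and 745 in cultured basophils, against 8530.5, 8168 and 7216 in mast cells (log2 fold change -3.48). Cma1, the chymase mMCP-5, fell less, with 8464, 8904 and 8996 in cultured basophils, against 26925, 27722 and 29182 in mast cells (log2 fold change -1.67). Neither Tpsb2 nor Tpsg1 nor Cma1 was near background in cultured basophils. Whether this signal came from most of the cells or from a part of them was not tested.

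Gzmc, a granzyme, was at 48.3, 49.3 and 51.3 in cultured basophils, against 222, 285 and 219 in mast cells (log2 fold change -1.97), and Gzmb fell by less than 2-fold, with 13752, 14787 and 14415 in cultured basophils, against 24379.8, 24880.4 and 22961 in mast cells. Cpa3, the carboxypeptidase of both granule types, gave 65343, 65471 and 62411 in cultured basophils, against 62411, 62411 and 65215 in mast cells; it lies close to the top of the scanner's range, so a difference between the cell types could be hidden. Ctsg, cathepsin G, gave 6731, 6559.6 and 7476 in cultured basophils, against 6952, 6771 and 5581 in mast cells and did not pass the test. The protease families hold near-copies, and the probe sequences were not used here, so a signal from a close relative cannot be told apart from the named gene.

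Neighbouring genes of the tryptase locus on chromosome 17 went in opposite directions. In the order of the mouse reference annotation (GRCm38.p6), Prss34 and its neighbour Prss28 were higher, Prss29 did not pass, and Tpsb2 and Tpsg1 were lower, so that 2 of the 5 annotated genes considered here rose and 2 fell. Prss28, a tryptase-like serine protease, was dim at 99.1, 94.3 and 100.0 in cultured basophils, against 11.9, 18.5 and 18.5 in mast cells (at least 3.26-fold higher). Prss29 stayed close to the background at 19.8, 46 and 30.6 in cultured basophils and 23.6, 59 and 24.2 in mast cells. On chromosome 14 the chymase locus has 15 genes in the annotation, of which 8 were measured. Mcpt8 was the only measured member of it that rose, while 6 fell, among them Cma1, Mcpt2, Gzmc and Gzmb, and Mcpt9 at background level.

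The promoters of the 2 ends of the tryptase locus are shown because Prss34 and Tpsg1 lie on the same strand and moved in opposite directions. The sequences are those of RefSeq (GRCm38.p6), plus strand, 250 bases before to 50 bases after the start of the gene, at chr17:25298144-25298443 for Prss34 and chr17:25369023-25369322 for the first of the 2 listed starts of Tpsg1. Capitals mark matches on either strand to the letters AGATAA or TGATAA (motifs of GATA factors), TTGCNNAA (a motif of C/EBP factors) and CATGTG or CACGTG (E-box motifs of Mitf and its relatives). Tpsb2 and Mcpt2 are not in the table.
Prss34: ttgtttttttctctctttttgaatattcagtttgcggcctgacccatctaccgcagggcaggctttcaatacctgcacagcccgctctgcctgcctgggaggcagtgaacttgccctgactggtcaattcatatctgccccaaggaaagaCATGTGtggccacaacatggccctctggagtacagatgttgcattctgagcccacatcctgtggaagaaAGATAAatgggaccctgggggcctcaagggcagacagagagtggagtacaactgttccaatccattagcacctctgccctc
Tpsg1: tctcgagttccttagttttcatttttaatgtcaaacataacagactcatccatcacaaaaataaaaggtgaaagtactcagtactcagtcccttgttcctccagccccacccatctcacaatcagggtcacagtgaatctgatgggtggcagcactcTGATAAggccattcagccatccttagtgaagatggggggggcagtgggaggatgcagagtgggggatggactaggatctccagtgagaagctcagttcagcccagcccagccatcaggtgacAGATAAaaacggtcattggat
The Prss34 window held CATGTG 100 bases and AGATAA 31 bases before the start. The Tpsg1 window held TGATAA 93 bases before and AGATAA 29 bases after the start, and no 2 matches overlapped. No match to TTGCNNAA or CACGTG was in either window. The windows of the other listed start of Tpsg1, of Mcpt8 and of Cma1 were also searched and held 0 matches to any of these motifs. Of 32851 mouse promoters of the same length, 11.2% held AGATAA, 9.05% TGATAA, 14.2% CATGTG, 10.8% TTGCNNAA and 7.15% CACGTG, so such matches are common and are given as a description only.

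**Figure D3:**
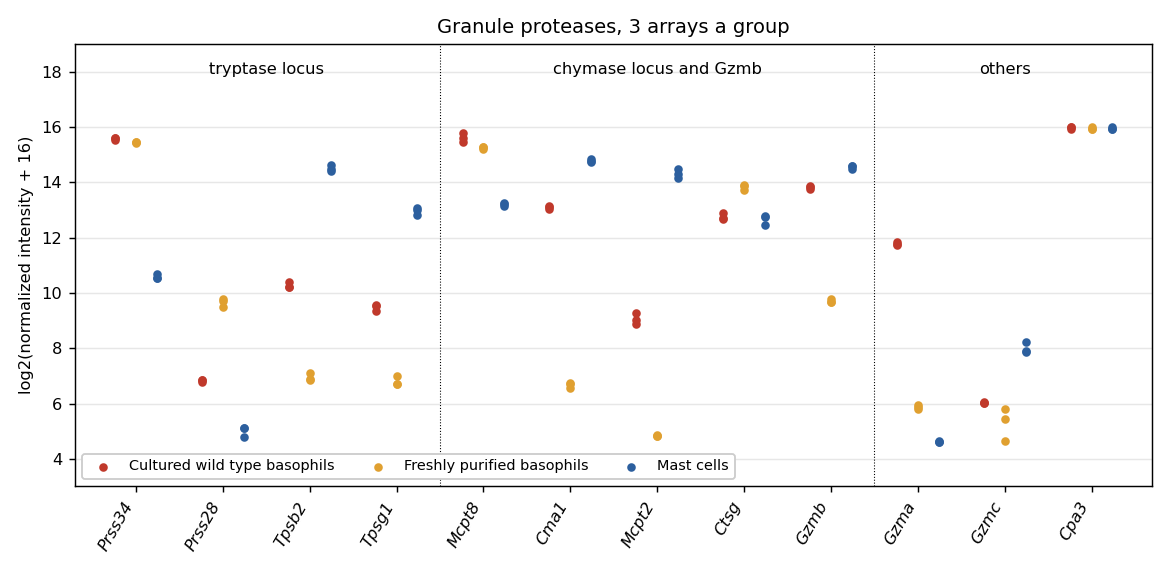
Normalized intensity on a log2 scale (vertical axis) of 12 granule proteases, 1 point per array, in cultured wild type basophils (red, left), freshly purified basophils (yellow, middle) and mast cells (blue, right), 3 arrays each. Prss34 and Mcpt8 are high in both basophil groups; Tpsb2, Tpsg1, Cma1, Mcpt2 and Gzmb are lowest in freshly purified basophils, intermediate in cultured basophils and highest in mast cells.

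Of 27 genes for heparin and chondroitin sulfate, 5 were higher and 11 lower in cultured basophils, the higher share being near that of all genes. Without between-array normalization 10 were higher and 8 lower and the median changed sign, so no direction is given for the group. Hs3st1, a heparan sulfate sulfotransferase, had 219, 196 and 207 in cultured basophils, against 2194, 2094 and 2491 in mast cells (log2 fold change -3.35). Ndst2, the sulfotransferase that mouse mast cells need to make heparin, had 2393, 2499.9 and 2184 in cultured basophils, against 8491, 8224 and 7632 in mast cells (log2 fold change -1.78). Hs6st2, which sulfates another position of the chain, had 522, 496 and 493 in cultured basophils, against 3724, 3359 and 3365 in mast cells (log2 fold change -2.75). The groups were apart for each, with mast cells higher. Chsy1, a chondroitin synthase, and Papss2, which makes the sulfate donor, fell with log2 fold changes of -2.80 and -2.46. Dse, an epimerase that turns chondroitin into dermatan sulfate, was at least 3.65-fold higher. Srgn, the core protein serglycin that carries these chains in granules, did not pass, at 16376, 15768 and 18071 in cultured basophils and 18175, 19430.2 and 17987 in mast cells.

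Histamine and serotonin genes parted. Of 11 measured, 4 were higher and 3 lower. Hdc, the histidine decarboxylase that makes histamine, had 20515, 21177 and 20392 in cultured basophils, against 308, 322 and 314 in mast cells (log2 fold change 5.97, SE 0.087, adjusted p = 5.73e-09). Tph1, the first enzyme of serotonin synthesis, had 1567, 1678 and 1742 in cultured basophils, against 17109, 16772 and 16471 in mast cells (log2 fold change -3.32, SE 0.091, adjusted p = 5.14e-08). All basophil arrays were thus above the mast cell arrays for Hdc and below them for Tph1. Ddc, the decarboxylase that completes serotonin, was at 43.8, 38.5 and 43.8 in cultured basophils, against 457, 382 and 405 in mast cells, and Maob, a monoamine oxidase that degrades amines, at 139, 145 and 127 in cultured basophils, against 2739, 2514 and 2567 in mast cells; both fell, with log2 fold changes of -2.89 and -4.10. Slc6a4, the serotonin transporter that takes it up from outside, rose, with 1922, 1698 and 1996 in cultured basophils, against 65.4, 72.1 and 50.7 in mast cells (log2 fold change 4.59). Slc18a2, which loads amines into granules, did not pass, at 4963 on average in cultured basophils and 4645 in mast cells.

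Of 22 genes of leukotriene and prostaglandin metabolism and response, 10 were higher and 6 lower. Among enzymes, thromboxane synthase, Tbxas1, fell most, with 5225, 4979 and 4811 in cultured basophils, against 21563, 22667 and 23921 in mast cells (log2 fold change -2.18). Ltc4s and Hpgds, the synthases of leukotriene C4 and of prostaglandin D2, fell by about 2-fold, with log2 fold changes of -0.95 and -0.94. Alox15, a lipoxygenase also abundant in eosinophils, rose with a log2 fold change of 3.39, and Ptgs2, the inducible cyclooxygenase, was at least 5.72-fold higher. Among receptors, Ltb4r1 for leukotriene B4 and Ptgir for prostacyclin rose, with log2 fold changes of 2.09 and 3.07.

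In the IgE receptor pathway 10 of 25 measured genes were higher and 9 lower. The IgE-binding chain and the chain that amplifies its signal were lower in cultured basophils: Fcer1a had a log2 fold change of -0.92 and Ms4a2, the beta chain, one of -1.11. Rasgrp4, a Ras activator known for its high level in mast cells, had 39.6, 44.8 and 34.3 in cultured basophils, against 972, 906 and 920.4 in mast cells (log2 fold change -4.10). Prkcb and Rasgrp1, which act downstream, had log2 fold changes of -2.16 and -2.09. The Src-family kinase Fyn had 433, 432 and 436 in cultured basophils, against 25.2, 51.9 and 49.4 in mast cells and its relative Fgr was at least 6.38-fold higher; Orai2, a calcium channel subunit, had a log2 fold change of 2.40. The adaptors Lat and the exchange factor Vav1 did not pass, with averages of 4855 and 2076 in cultured basophils and 4897 and 2043 in mast cells.

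Of 21 genes of granule release, 7 were higher and 6 lower, and the sign of their median depended on the normalization. Stx11, a syntaxin of cytotoxic cells and phagocytes, had 3267, 3315 and 3393 in cultured basophils, against 609, 581 and 831 in mast cells (log2 fold change 2.29), and Lyst, whose loss gives giant granules, had 2.17. Mlph, melanophilin, which links Rab27 to myosin, had 129, 122 and 130.5 in cultured basophils, against 803, 701 and 749 in mast cells (log2 fold change -2.42). Syt9, a calcium sensor, was at least 8.97-fold lower in cultured basophils. The vesicle fusion proteins Vamp8 and Snap23 fell with log2 fold changes of -0.87 and -0.70.

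Receptors for IgG and paired inhibitory and activating receptors leaned to the basophils, with 13 of 20 measured members higher and 3 lower and a median log2 fold change of 0.89. Fcgr4, an activating IgG receptor of mouse myeloid cells, had 1170.4, 1049.7 and 1068 in cultured basophils, against 21.7, 14.4 and 20.3 in mast cells (at least 36.5-fold higher). The inhibitory receptor Fcgr2b had 4897, 5132 and 5016 in cultured basophils, against 736, 741 and 751 in mast cells (log2 fold change 2.73) and Fcgr3, a low-affinity activating receptor, 30114, 29182 and 31197 in cultured basophils, against 10203, 10712 and 11479.8 in mast cells (log2 fold change 1.48). All 3 were higher on each basophil array. Pilra and Pilrb1, an inhibitory and activating pair, rose with log2 fold changes of 2.87 and 1.91.

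Of 42 lineage transcription factors, 23 were higher and 14 lower, with a median log2 fold change of 0.39. Id1, Ets1, Cebpa and Nfil3 rose most. Id1, an inhibitor of helix-loop-helix factors, had 9283, 9032 and 7851 in cultured basophils, against 97.1, 99.4 and 106 in mast cells (log2 fold change 6.22, SE 0.10, adjusted p = 7.42e-09). Ets1, an ETS factor of lymphocytes, had 26925, 28456 and 28130.1 in cultured basophils, against 434, 478 and 547 in mast cells (log2 fold change 5.80, SE 0.11, adjusted p = 1.13e-08). Nfil3, a leucine zipper factor named for its regulation by IL-3, had 1975, 1964 and 1976 in cultured basophils, against 65.4, 73.1 and 53.4 in mast cells (log2 fold change 4.64). Irf4, an interferon regulatory factor, was at least 13.8-fold higher and Hoxa9, a progenitor homeobox factor, at least 4.55-fold higher. Tfec, a relative of Mitf, rose, with 429.9, 439.9 and 437 in cultured basophils, against 37.5, 48.4 and 40.3 in mast cells (log2 fold change 2.96), opposite to Mitf itself. Mitf was the member with the largest fall. Gata2, which both lineages need in mice, had a log2 fold change of 0.81, while Gata1, at 397, 396 and 348 in cultured basophils and 464, 415 and 475 in mast cells, did not pass, though it did with median scaling.

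Of 10 measured progenitor genes, 4 were higher and 6 lower in cultured basophils, Kit among the lower ones. Cd34, a sialomucin of progenitors that mouse mast cells keep, had 1985, 1841 and 1868 in cultured basophils, against 26542, 28743 and 30596 in mast cells (log2 fold change -3.90, SE 0.098, adjusted p = 3.47e-08). Mycn, a proto-oncogene of the Myc family, had 42.9, 27.1 and 35.3 in cultured basophils, against 813, 849 and 669 in mast cells (log2 fold change -3.96). Myb and Meis1, transcription factors of progenitors, had log2 fold changes of -1.95 and -1.14.

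Cytokine receptors showed 17 of 35 measured members higher and 9 lower. Il7r, the receptor of IL-7 and, with Crlf2, of TSLP, had 2371, 2373 and 2444 in cultured basophils, against 31.2, 15.7 and 28.4 in mast cells (log2 fold change 5.90, SE 0.15, adjusted p = 3.97e-08). Crlf2 itself did not pass, at 16192 on average in cultured basophils and 18692 in mast cells, though it did as lower with median scaling. Both chains of the IL-18 receptor rose: Il18r1 had 3559, 3804 and 3474 in cultured basophils, against 478, 453 and 482 in mast cells (log2 fold change 2.90) and Il18rap a log2 fold change of 3.57. Ifngr2, a chain of the interferon-gamma receptor, had 3684, 3777 and 3599 in cultured basophils, against 187, 204 and 189 in mast cells (log2 fold change 4.14), and Csf1r, the macrophage growth factor receptor, was at least 44.6-fold higher. On the mast cell side stood Kit and Il4ra. Csf2rb, the beta chain of the IL-3 receptor, had 18905, 17109 and 19430.2 in cultured basophils and 16115, 17014 and 18071 in mast cells and did not pass, though it did as higher without between-array normalization.

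Chemoattractant receptors leaned to the basophils, with 10 of 16 measured members higher and 2 lower. Besides Cxcr2, S1pr1, the receptor by which cells leave tissue toward sphingosine 1-phosphate in blood, had 1073, 987 and 1094 in cultured basophils, against 46.8, 40.5 and 46.8 in mast cells (log2 fold change 4.14). Ccr7 and Cxcr4, which guide cells to lymph nodes and to marrow, were at least 8.31-fold and 5.44-fold higher. C3ar1, the receptor of complement C3a, had 11808, 11695 and 13249 in cultured basophils, against 2779, 3133 and 2954 in mast cells (log2 fold change 2.04). The largest fall was that of Cx3cr1, the fractalkine receptor, with 936, 863 and 872 in cultured basophils, against 17987, 20392 and 17700.0 in mast cells (log2 fold change -4.37, SE 0.1, adjusted p = 2.21e-08), higher on every mast cell array.

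Among cytokines and chemokines 26 of 34 measured genes were higher and 3 lower, with a median log2 fold change of 1.99. The summed intensity of the 34 genes was 147789 to 151522 in cultured basophils, against 10679 to 11289 in mast cells. A few bright probes weigh most in it: Ccl3, Ccl6 and Ccl4 averaged 42706, 39771 and 17421 in cultured basophils. Ccl3, a chemokine that basophils store and release, had 44127, 43008 and 40982 in cultured basophils, against 538, 459 and 610.2 in mast cells (log2 fold change 6.28, SE 0.12, adjusted p = 1.16e-08). Ccl4 and Ccl6, from the same cluster, had log2 fold changes of 5.48 and 5.73. Ccl22, which attracts Th2 cells, had 1219, 1307 and 1326 in cultured basophils, against 23.6, 30.6 and 24.2 in mast cells (log2 fold change 4.95). Csf1, the macrophage growth factor, had 4407, 3951 and 4559.7 in cultured basophils, against 131, 152 and 132 in mast cells (log2 fold change 4.81), and Cxcl2, a ligand of Cxcr2, was at least 31.1-fold higher. Il4, the cytokine for which basophils are best known, was at 253, 267 and 242 in cultured basophils, against 2.61, 1.06 and 0.306 in mast cells and at least 8.46-fold higher, and Il6 had a log2 fold change of 2.47. Tnf, Il10 and Tgfb1 did not pass.

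On chromosome 11, 2 runs of chemokine genes were examined, from Ccl2 to Ccl12 and from Ccl9 to Ccl4. The ends of the runs were set by choice, and chemokine genes beyond them were not examined in this way. In the first, Ccl2, Ccl7 and Ccl12 rose while Ccl11, eotaxin, was at least 1.65-fold lower, with 18.4, 10.2 and 12.1 in cultured basophils, against 64.2, 39.4 and 48.1 in mast cells. Ccl2, a chemokine for monocytes, had 6204, 5802 and 6674 in cultured basophils, against 1591, 1918 and 1533 in mast cells (log2 fold change 1.88). In the second run, all 4 measured members, Ccl9, Ccl6, Ccl3 and Ccl4, rose. These chemokines are close relatives too, and cross-hybridization was not tested.

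Integrins and adhesion molecules showed 20 of 29 measured members higher and 4 lower, with a median log2 fold change of 1.42. Itgam and Itgb2, the chains of the phagocyte integrin Mac-1, had 4483, 4171 and 4462 in cultured basophils, against 80.7, 65.2 and 94.5 in mast cells for Itgam and 3597, 4167 and 3916 in cultured basophils, against 155, 123 and 121 in mast cells for Itgb2, with log2 fold changes of 5.52 and 4.72. Itgb3, the chain that pairs with the alpha-V chain, had a log2 fold change of 3.83, and Itgb5, a further partner of it, was at least 24-fold higher. Itgae, the chain CD103 that binds E-cadherin on epithelium, went the other way with 795, 799 and 748 in cultured basophils, against 7908, 8101 and 7908 in mast cells (log2 fold change -3.33). Cadm1, an adhesion molecule by which mast cells hold to fibroblasts and nerves, had 105, 101 and 85.9 in cultured basophils, against 904, 1029.8 and 1020.1 in mast cells (log2 fold change -3.14). Of 17 toll-like receptors and partners, 8 were higher and 3 lower. Tlr13, a sensor of bacterial ribosomal RNA, had 490.3, 455 and 484 in cultured basophils, against 19.8, 25.8 and 33.1 in mast cells (log2 fold change 3.55), and Nod1 and Cd14 were at least 7.18-fold and 5.95-fold higher, whereas Cd180 had -1.63.

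Genes of the dividing cell leaned to the mast cells. Of 18 mitosis genes, 14 were lower and 0 higher, and of 23 DNA replication genes 21 were lower and 0 higher, with median log2 fold changes of -1.27 and -1.18. Mki67, the proliferation antigen, had 605, 568 and 595 in cultured basophils, against 1718, 1818 and 1726 in mast cells (log2 fold change -1.55). Mcm5, a subunit of the replicative helicase, had 324, 339 and 328 in cultured basophils, against 1148, 1147 and 1082 in mast cells (log2 fold change -1.72). The cyclin Ccnb2 had 47.2, 52.1 and 45.7 in cultured basophils, against 210.0, 227 and 234 in mast cells (log2 fold change -1.90). In each the groups were apart, yet cultured basophils kept a measurable level.

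Cholesterol synthesis was also lower, in 11 of 14 measured genes with 0 higher and a median log2 fold change of -1.15. Sqle, squalene epoxidase, had 211, 208 and 193 in cultured basophils, against 781, 814 and 897 in mast cells (log2 fold change -1.94), and Idi1 and Insig1, a synthesis enzyme and a sterol-sensing regulator, had -1.77 and -1.49. Of 8 genes of the aryl hydrocarbon receptor pathway, 5 were lower and 0 higher. The receptor, Ahr, had 42.9, 49.3 and 53.4 in cultured basophils, against 697, 601 and 654 in mast cells (log2 fold change -3.37). Ahrr, its repressor and target, had 411, 394 and 334 in cultured basophils, against 7119, 7460.4 and 8038 in mast cells (log2 fold change -4.26, SE 0.11, adjusted p = 4.12e-08). Cyp1b1 and Tiparp, further targets, had log2 fold changes of -1.77 and -0.90, though a dimmer probe of Tiparp did not pass, and the target Nqo1 was at least 5.14-fold lower.

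All 13 measured interferon-stimulated genes were higher in cultured basophils, with a median log2 fold change of 2.92 and summed intensities of 48956 to 49669.9 in cultured basophils, against 9526 to 10956 in mast cells. Irf7, the factor that amplifies interferon responses, had 10798, 10427 and 11032 in cultured basophils, against 207, 222 and 240.3 in mast cells (log2 fold change 5.49, SE 0.096, adjusted p = 8.92e-09). Isg15, a ubiquitin-like modifier, had 2914, 3013 and 3084 in cultured basophils, against 56.8, 59 and 71.2 in mast cells (log2 fold change 5.27). Ifit1, which binds foreign RNA, was at least 40.8-fold higher, and Rsad2, viperin, had a log2 fold change of 3.95. No basophil array overlapped the mast cell arrays in these 4 genes.

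Lysosomal genes rose in 18 of 25 measured members, with 1 lower and a median log2 fold change of 0.71. The cysteine proteases led. Ctsl, cathepsin L, had 13579, 17987 and 15992 in cultured basophils, against 168, 148 and 154 in mast cells (log2 fold change 6.51). A dimmer Ctsl probe averaged 67.3 in cultured basophils and 14.3 in mast cells, a smaller log2 fold change of 1.47 in the same direction. Ctss, cathepsin S, had 4366, 4220.4 and 4979 in cultured basophils, against 103, 86.4 and 92 in mast cells (log2 fold change 5.37). Gpnmb, a glycoprotein of lysosomes and melanosomes, had 3951, 3979 and 3784 in cultured basophils, against 101, 105 and 103 in mast cells (log2 fold change 5.04). In iron and haem handling 7 of 11 measured genes rose and 0 fell. Slc40a1, the iron exporter ferroportin, had 1759, 1599.9 and 1607 in cultured basophils, against 11.9, 39.4 and 37.2 in mast cells (log2 fold change 5.26), Hmox1, haem oxygenase, had 2.80 and Slc11a1, a metal transporter of phagosomes, 2.94. Of 16 targets of p53, 10 were higher and 4 lower; Perp had 4929.5, 5841 and 5044 in cultured basophils, against 122, 109 and 132 in mast cells (log2 fold change 5.27), while Cdkn1a did not pass.

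**Figure D4:**
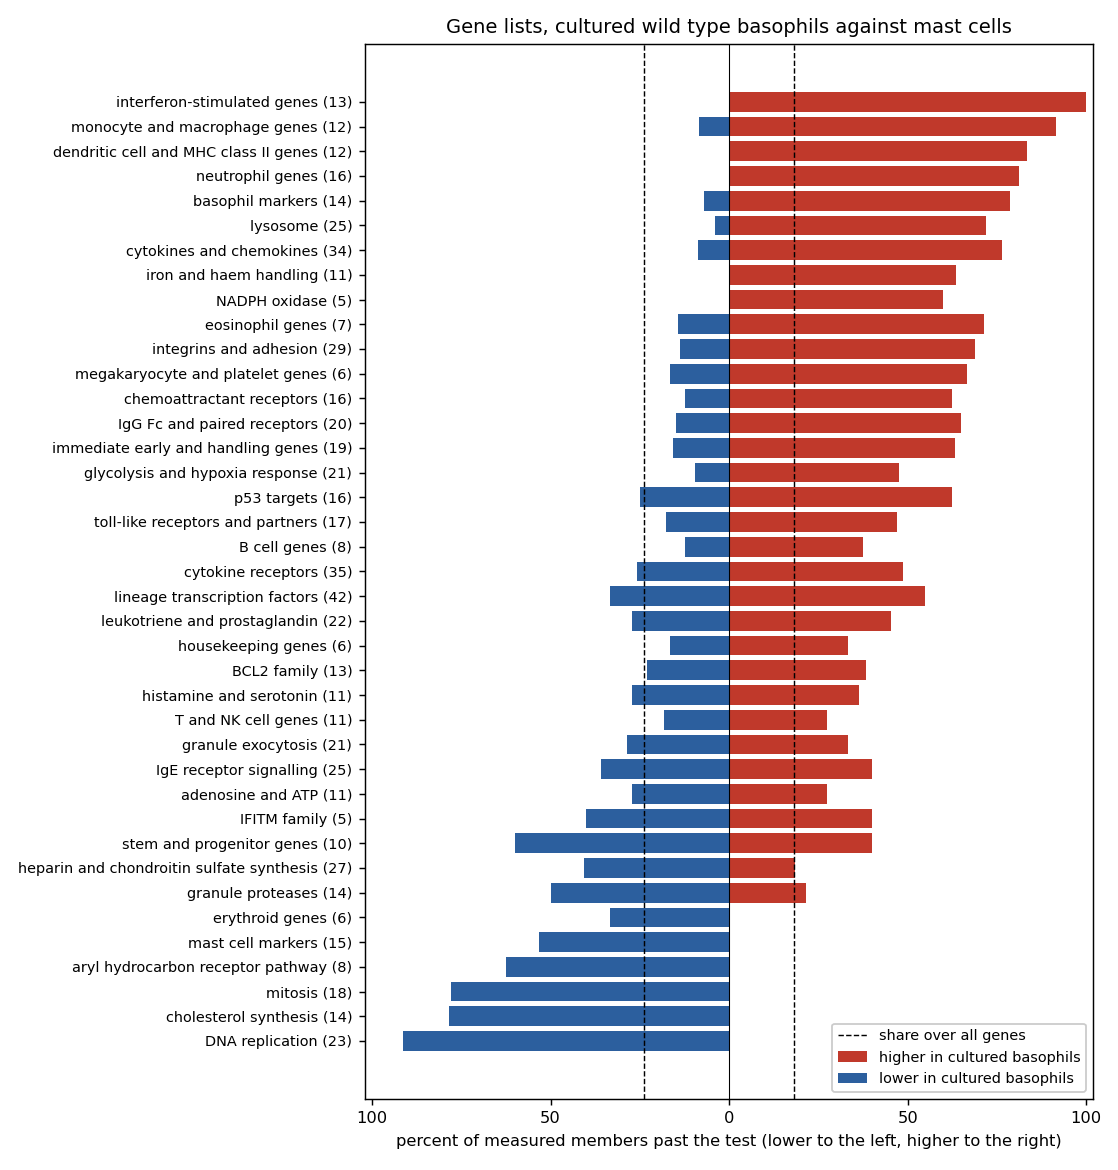
Share of measured members past the test, in percent, for 39 gene lists: higher in cultured basophils to the right (red), lower to the left (blue), with the number of measured members in brackets. Dashed lines give the share over all genes, 18.2% higher and 23.8% lower; all 13 interferon-stimulated genes are higher, while DNA replication, mitosis and cholesterol synthesis are among the lists with no higher member.

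Markers of other blood cells moved with the comparison, and their part in the results was not tested. Of 16 neutrophil genes, 13 were higher and 0 lower, with summed intensities of 37515 to 39389 in cultured basophils, against 6419 to 7786 in mast cells, of which Ctsg alone gave 6435 on average. S100a9, a calcium-binding protein of neutrophils, had 6856, 7938 and 6331 in cultured basophils, against 136, 119 and 117 in mast cells, and Lcn2, lipocalin 2, 3976, 4128 and 4014 in cultured basophils, against 40.4, 40.5 and 39.3 in mast cells. The neutrophil granule genes Camp and Mpo rose as well, with 133, 132 and 135 in cultured basophils, against 27.8, 18.5 and 41.9 in mast cells for Camp and 837, 792 and 753 in cultured basophils, against 167, 173 and 186 in mast cells for Mpo. The probe of S100a8, which pairs with S100a9, stayed under 30 on all 6 arrays.

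Of 7 eosinophil genes, 5 were higher and 1, Il5ra, lower, with sums of 4801 to 4967 in cultured basophils, against 632 to 727 in mast cells. Prg2, the eosinophil major basic protein, had 3885, 3942 and 3844 in cultured basophils, against 153, 161 and 199 in mast cells (log2 fold change 4.39), whereas Epx, eosinophil peroxidase, had 123, 132 and 112 in cultured basophils and 127, 145 and 134 in mast cells and did not pass. Of 12 monocyte and macrophage genes, 11 were higher and 1, Cx3cr1, lower, with a median log2 fold change of 3.78. Mrc1, the mannose receptor, was at least 84.2-fold higher, C1qa, of complement C1q, at least 54.2-fold higher and Adgre1, an adhesion receptor of macrophages, had 3439.7, 3212 and 3494 in cultured basophils, against 240.4, 248 and 208 in mast cells. The sums were 14873 to 16606 in cultured basophils, against 18417 to 21138 in mast cells, where Cx3cr1 made up most of it.

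Of 12 dendritic cell and MHC class II genes, 10 were higher and 0 lower, with sums of 17693 to 19859 in cultured basophils, against 5362 to 6103 in mast cells. H2-Aa had 13996, 13205 and 11585 in cultured basophils, against 4451, 4078 and 4845 in mast cells, and Cd86, a costimulatory ligand of T cells, had 669.6, 677 and 609.8 in cultured basophils, against 29, 23.6 and 32.2 in mast cells (log2 fold change 3.92). Siglech and Cd80 stayed under 30 on all 6 arrays. Of 8 B cell genes 3 were higher and 1 lower, and of 11 T and NK cell genes 3 were higher and 2 lower. Over all genes 18.2% were higher and 23.8% lower. Under the background limit in both cell types were 4 of the B cell genes and 7 of the T and NK cell genes. The sums of the B cell genes were 707 to 776 in cultured basophils, against 433 to 485 in mast cells, and those of the T and NK cell genes 384 to 411 in cultured basophils, against 232 to 256 in mast cells. The T cell markers Cd3d and Cd4 and the NK receptor Ncr1 stayed under 30 on all 6 arrays. Of 6 erythroid genes 0 were higher and 2 lower. Their sums were 224 to 264 in cultured basophils, against 880.2 to 998 in mast cells, with the beta-globin gene Hbb-b1, which has near-copies, at 153, 154 and 157 in cultured basophils, against 861, 903 and 772 in mast cells.

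The test of cultured against freshly purified basophils shows how far the contrast with mast cells depends on which basophils are used, because the same mast cell arrays cancel from it. Of 19084 genes, 7732 passed (40.5%), 3850 higher (20.2%) and 3882 lower (20.3%) in cultured than in fresh basophils. The share of higher genes among them was 49.8%, against 38.2% with median scaling and 34.1% without between-array normalization, so the prevailing direction depended on the normalization. At least 2-fold differences were found for 2159 genes (11.3%), 1020 higher (5.34%) and 1139 lower (5.97%). Culture time and the RosaYFP/creER alleles differ together between these groups, and IL-3 complexes in the animal may differ as well. Their parts cannot be told apart.

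Of the 4 markers, 2 did not pass between the basophil groups and 2 did. Cebpa had 2280.2, 2602 and 2226 in cultured basophils, against 2232, 2393 and 2105 in fresh ones, and Prss34 47688, 49573 and 49573 in cultured, against 44127, 45456 and 45456 in fresh; neither passed (adjusted p = 0.602 and 0.281). Kit was higher after culture, at 2106, 2222 and 2347 in cultured basophils, against 260.3, 279.6 and 300.1 in fresh ones (log2 fold change 2.92, SE 0.091, adjusted p = 2.7e-07). Mitf was at 569.8, 600.2 and 592 in cultured basophils, against 150.4, 152 and 154 in fresh ones (log2 fold change 1.84, SE 0.078, adjusted p = 1.02e-06). For Kit and Mitf cultured basophils stood between fresh basophils and mast cells, without overlap.

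Mast cell markers leaned the same way. Of 15 measured, 9 were higher and 1 lower in cultured than in fresh basophils, while 0 were higher and 8 lower in cultured basophils than in mast cells. Cma1 averaged 8788 ± 284 in cultured basophils, 86.4 ± 6.99 in fresh basophils and 27943 ± 1144 in mast cells (SD, n = 3 each; log2 fold change of cultured over fresh 6.43, adjusted p = 1.16e-08). Tph1 averaged 1663 ± 88.9 in cultured basophils, 17.3 ± 3.99 in fresh basophils and 16784 ± 319 in mast cells, and was at least 55.4-fold higher in cultured than fresh basophils. Tpsb2 averaged 1225 ± 88.1 in cultured basophils, 108 ± 12.5 in fresh basophils and 23255 ± 2051 in mast cells (log2 fold change of cultured over fresh 3.32). Of 14 basophil markers, 4 were higher and 5 lower in cultured than fresh basophils.

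The 5 genes most raised in cultured over fresh basophils under the naming rule were Arg1, Rbp4, Pdpn, Ch25h and Ccl7. Arg1 was at 23528, 22667 and 24379.8 in cultured basophils, against 9.56, 9.28 and 10.6 in fresh ones, at least 784-fold higher, and thus close to background in both fresh basophils and mast cells. Rbp4 was at least 153-fold higher, and Ccl7 had a log2 fold change of 6.45. Pdpn, the membrane glycoprotein podoplanin, was at least 89.3-fold higher than in fresh basophils, and Ch25h, which makes 25-hydroxycholesterol, had 5406, 5004 and 5074 in cultured basophils, against 43.8, 33.6 and 37.2 in fresh ones (log2 fold change 6.58). The 5 most lowered were Hspa1b, Hspa1a, Camp, Fosb and Epx. Hspa1b, a heat shock protein, was at 28.4, 21.4 and 26.9 in cultured basophils, against 4519, 4277 and 4220.4 in fresh ones (at least 145-fold lower), and its near-copy Hspa1a was at least 53.6-fold lower. Camp had 133, 132 and 135 in cultured basophils, against 13885, 15202 and 15202 in fresh ones (log2 fold change -6.63), and Epx 123, 132 and 112 in cultured, against 5730.4, 6479 and 6335 in fresh (log2 fold change -5.49). Fosb, an immediate early transcription factor, had a log2 fold change of -5.58.

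Several groups stood on one side of mast cells in cultured basophils and on the other in fresh ones. Mitosis genes had a median log2 fold change against mast cells of -1.27 in cultured and 1.15 in fresh basophils, and 17 of 18 were lower in cultured than fresh basophils with 0 higher. DNA replication genes had medians of -1.18 in cultured and 0.78 in fresh basophils, with 22 of 23 lower and 0 higher in cultured than fresh. Mki67 shows the spread, at 605, 568 and 595 in cultured basophils, 5081, 5105 and 5259 in fresh basophils and 1718, 1818 and 1726 in mast cells. The p53 targets had medians of 0.60 in cultured and -0.44 in fresh basophils, with 11 of 16 higher and 3 lower in cultured than fresh.

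Of 19 immediate early genes, which cells switch on soon after a stimulus or handling, 12 were higher and 3 lower in cultured basophils than in mast cells, and 14 were lower and 0 higher in cultured than fresh basophils. Fos was at 976, 965 and 1060.4 in cultured basophils, 18402, 16726 and 18698 in fresh basophils and 3.67, 6.5 and 8.39 in mast cells. Of 13 interferon-stimulated genes, 10 were higher and 3 lower in cultured than fresh basophils. Neutrophil genes were lower in cultured than fresh basophils in 12 of 16 members and higher in 2, and eosinophil genes lower in 6 of 7 and higher in 1. The summed neutrophil genes reached 37515 to 39389 in cultured and 115641 to 121231 in fresh basophils, and the summed eosinophil genes 4801 to 4967 in cultured and 48916 to 50273 in fresh basophils. Retnlg, by contrast, had 12319.5, 12789 and 12184 in cultured basophils and 12133, 12588 and 13249 in fresh ones and did not pass (adjusted p = 0.849). Nkg7, a granule protein of NK and T cells, had 175, 159.8 and 190.2 in cultured basophils, against 3739, 4113 and 4202 in fresh ones (log2 fold change -4.40). What these marker shifts contribute to the other differences was not tested.

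**Figure D5:**
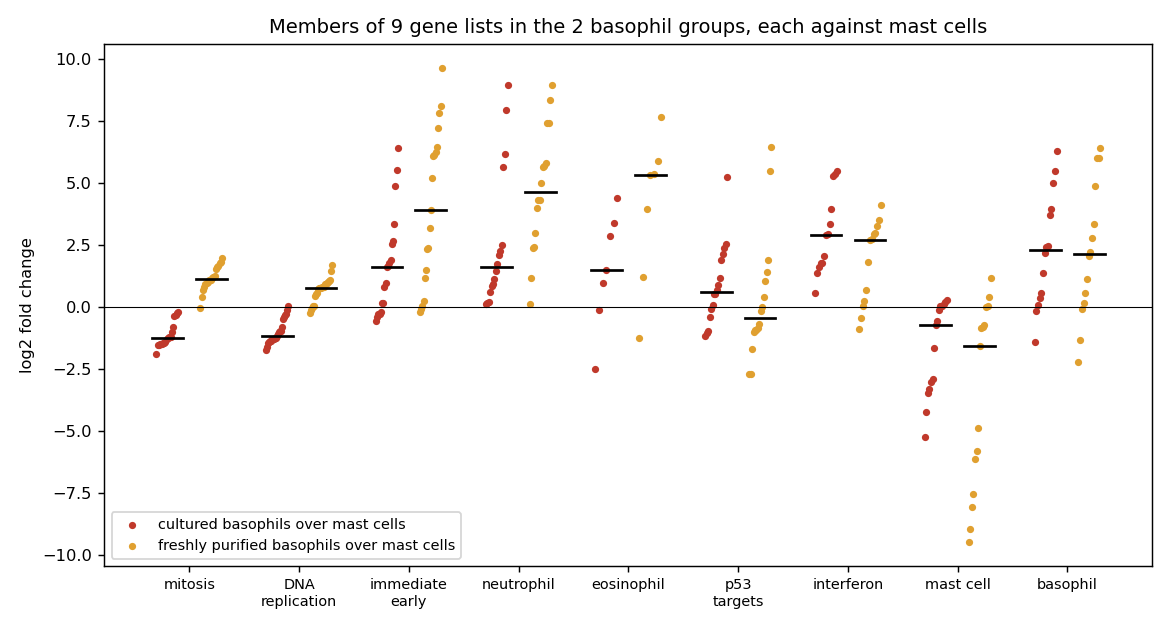
Log2 fold change over mast cells (vertical axis) of each measured member of 9 gene lists, in cultured wild type basophils (red, left of each pair) and freshly purified basophils (yellow, right of each pair), with the median as a black bar; both use the same 3 mast cell arrays. Mitosis genes have medians of -1.27 in cultured and 1.15 in fresh basophils, and neutrophil genes 1.61 in cultured and 4.66 in fresh basophils.

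In the Cebpa f/f basophils 4-hydroxytamoxifen removes Cebpa through creER; their values are set beside those above, with no test. Cebpa was at 69.1, 69.4 and 57.8 in treated Cebpa f/f basophils, 2973, 2822 and 2539 in treated Cebpa +/+ basophils, 2280.2, 2602 and 2226 in the untreated Cebpa +/+ basophils and 56.8, 63.8 and 45.7 in mast cells. Mitf was at 1804, 1785 and 1619.6 in treated Cebpa f/f basophils, 458, 423 and 405 in treated Cebpa +/+ basophils and 569.8, 600.2 and 592 in untreated Cebpa +/+ basophils. Kit was at 13334, 15106 and 12227 in treated Cebpa f/f basophils, 4429.9, 4586 and 5225 in treated Cebpa +/+ basophils and 2106, 2222 and 2347 in untreated Cebpa +/+ basophils. Prss34 was at 18905, 20786 and 20392 in treated Cebpa f/f basophils, 47688, 47688 and 43008 in treated Cebpa +/+ basophils and 47688, 49573 and 49573 in untreated Cebpa +/+ basophils. Between treated and untreated Cebpa +/+ basophils neither Kit nor Mitf overlapped, with the treated arrays higher for Kit and lower for Mitf. The share of all genes without overlap was not computed for this pair. In the treated f/f basophils Cebpa thus lay near the mast cell level and Kit and Mitf above every wild type basophil array quoted here. The series also holds untreated Cebpa f/f basophils, whose values are not given here. A difference between the genotypes before the drug therefore cannot be told apart from the removal of Cebpa in these values.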

How the data were processed

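Single-dye microarrays (26423 probes) measured RNA of 18 samples in 6 groups of 3. The deposited values are intensities on a linear scale that the authors background-subtracted, as values below 0 show; no source at hand states a normalization, and the array medians differ. Extraction used Trizol and RNeasy, per the labels' protocols. Intensities were quantile normalized over the 18 arrays with limma 3.58.1 in R 4.3.3, 16 was added and log2 taken. Each comparison was fitted with lmFit and eBayes on its 6 arrays, two-sided, with Benjamini-Hochberg adjustment over all probes and a threshold of 0.05, and the script was tested on simulated data.

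The platform annotation gives 1 symbol to 21876 probes and none to 4547. The probe with the highest mean stands for a gene, of which 2424 have several probes. The background limit of 30 was chosen after the data were seen. Precision is limited by having 3 arrays per group.

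The compared groups and the 39 gene lists were chosen with earlier results of these data known. Of 650 listed genes 585 were measured and 433 of these passed the test, beside 8017 of 19084 over all genes (42.0%). Genes that could be named were the 15 highest and 15 lowest fold changes among genes that passed without overlap, the 4 markers, all members of lists of 12 or fewer and otherwise up to 8 with the largest changes and 3 of the brightest that did not pass, of which the text gives a selection; against fresh basophils, 5 each way. Prss28, Prss29, Gzmb, Ccl2 and Ccl11 lie outside the rule and were named, after their values were seen, for their place in a gene cluster. Scaling, offset, dim-probe filter, fit, block and left-out arrays were varied. Protein sequences were not used here, so protease identities were not computed.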

Additional observations from a re-analysis of the deposited data

Results flagged for a closer look

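In 8 gene lists the median difference from mast cells had opposite signs in cultured and in fresh basophils. For 5 of them both medians exceeded 0.1 on the log2 scale and at least 50% of the members passed the test between the basophil groups. The other 3 were histamine and serotonin, IgE receptor signalling and B cell genes. These limits chose the 5 lists, so the counts below are in part fixed by them. Over all genes 20.2% were higher and 20.3% lower in cultured than fresh basophils. The difference between the 2 basophil groups was tested by limma with Benjamini-Hochberg adjustment. In DNA replication 22 of 23 members were lower in cultured than fresh basophils, and in mitosis 17 of 18. Among p53 targets 11 of 16 were higher in cultured than fresh basophils. All 6 measured erythroid genes were lower in cultured than fresh basophils, with sums of 224 to 264 in cultured and 2303 to 2370.3 in fresh basophils. Of 6 housekeeping genes 3 were lower and 1 higher in cultured than fresh basophils. Between fresh basophils and mast cells 0 of them were higher and 0 lower, so the sign of that median rests on no member past the test. The medians of the erythroid and housekeeping lists against mast cells changed sign in cultured basophils without between-array normalization. Both contrasts use the same 3 mast cell arrays.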

How the results depend on the processing

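The log2 scale of dim genes, 3 arrays a group and the choice of normalization limit these results. Counts against mast cells, 8017 genes in the reported setting, lay between 7790 and 8644 under the other normalizations, offset, filter, trend and pooled fit. Without between-array normalization 5237 were higher and 2689 lower, with median scaling 36.5% of calls were higher. A 2-fold condition left 2817. For cultured against fresh basophils 2487 were higher without normalization and 2159 passed the 2-fold condition, and 58.7% were higher with scaling on probes above background. Leaving out 1 array gave 6900 to 7624 genes against mast cells (3029 to 3372 higher, 3871 to 4252 lower), 404 to 427 list members, and 6788 to 7132 genes between basophil groups (3319 to 3525 higher, 3469 to 3607 lower). With the replicate block 7434 genes passed against mast cells and 7214 genes between basophil groups; same-numbered arrays correlated between -0.056 and 0.055 with mast cells and between -0.098 and 0.099 with fresh basophils, and not every array best with its own number, so pairing was not assumed. The medians of the proteoglycan, exocytosis, nucleotide, B cell, T and NK cell, erythroid, BCL2, IFITM and housekeeping lists changed sign under a scaling or with probes averaged. Of the genes named, Cd200r3 lost its call on the probe with the higher mean with median scaling and without cultured basophil replicate 2 (adjusted p = 0.052 by limma). Crlf2, Gata1, Csf2rb, Tpi1 and Pgk1, reported as not passing, passed with 1 to 4 of the other settings. Hspa1b against mast cells lost its call without normalization. The other named genes against mast cells kept their call in every setting run, as did the 21 followed against fresh basophils. Those that passed also kept their direction, whereas a change of sign in genes that did not pass was not counted. The cause of these shifts was not tested. The planned comparison of protease proteins was not run.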

Other observations

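Of 6 measured megakaryocyte and platelet genes, 4 were higher and 1 lower. Pf4, platelet factor 4, had 10041, 10070.5 and 11695 in cultured basophils, against 206, 148 and 154 in mast cells (log2 fold change 5.85), and its relative Ppbp was at least 11.6-fold higher. Vwf, von Willebrand factor, went the other way with 224, 225 and 210.2 in cultured basophils, against 1154, 1070.4 and 1089 in mast cells (log2 fold change -2.25), and Itga2b, the platelet integrin chain, stayed under 30 on all 6 arrays. Pf4 was also higher in cultured than in fresh basophils, at 10041, 10070.5 and 11695 in cultured and 1591, 1420.2 and 1367 in fresh basophils (log2 fold change 2.85, adjusted p = 5.13e-07 by limma).

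Of 11 genes of adenosine and ATP signalling, 3 were higher and 3 lower, shares near those of all genes, and the sign of their median depended on the normalization. P2rx7, an ATP-gated channel, had 263, 252 and 247 in cultured basophils, against 2252, 2565 and 1934 in mast cells (log2 fold change -3.06), though 1 of its dimmer probes did not pass, whereas P2ry1, an ADP receptor, had 11657, 12836 and 10357 in cultured basophils, against 2323, 2143 and 2384 in mast cells (log2 fold change 2.33). Among 21 genes of glycolysis and the response to low oxygen, 10 were higher and 2 lower. The glycolytic enzymes Ldha, Tpi1 and Pgk1 did not pass, with averages of 18602, 15672 and 14706 in cultured basophils and 17914, 14628 and 13079 in mast cells. Egln3, an oxygen-sensing hydroxylase, had a log2 fold change of 3.83, and Vegfa, the vascular growth factor, had 4612, 4252 and 4125 in cultured basophils, against 649, 683 and 689 in mast cells (log2 fold change 2.65). In the BCL2 family 5 of 13 measured members were higher and 3 lower, again with a median whose sign depended on the setting. The 2 probes of Bcl2 itself had opposite signs, and it is not described for that reason. Bcl2l2, which protects from cell death, had 224, 241 and 191 in cultured basophils, against 518, 457 and 541 in mast cells (log2 fold change -1.15), while Bcl2l11, which promotes it, had 554, 624 and 593 in cultured basophils, against 284, 293 and 288 in mast cells (log2 fold change 0.99). Mcl1, a further protective member, had a log2 fold change of 0.71.

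Of 5 measured NADPH oxidase genes, 3 were higher and 0 lower (2 lower with median scaling), and Cybb, the catalytic subunit, was at least 2.52-fold higher at 73.1, 66.4 and 88.7 in cultured basophils. Of 5 IFITM genes, which encode membrane proteins that hinder virus entry, 2 were higher and 2 lower, with no common direction. Ifitm6 was at least 3.73-fold higher, and Ifitm2 had a log2 fold change of -1.26. Ifitm6 was lower in cultured than in fresh basophils, at 110.1, 111 and 114 in cultured and 4949, 5132 and 5336 in fresh basophils (log2 fold change -5.33).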
